A study of Homo sapiens with 8 samples.

Results

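The SOX transcription factors were measured in SHSY5Y cells, a human neuroblastoma line of neural crest origin, as part of a comparison of 2 stable lines before and after neuronal differentiation. The members were the 10 genes SOX2, SOX4, SOX5, SOX6, SOX8, SOX9, SOX10, SOX11, SOX12 and SOX13, each found as the 1 row of the array table annotated to that symbol alone, out of 18377 genes in all. Human Gene 1.0 ST arrays from Affymetrix, 8 in number, covered 4 groups of 2 biological replicates. These groups were V71 DF, V71 NDF, PLKO DF and PLKO NDF, after the codes in the sample titles. DF cells were differentiated on laminin with retinoic acid (10 µM, 5 days) and afterwards with the neurotrophin BDNF (2 nM, 3 days) in medium without serum. NDF cells grew on laminin in growth medium with serum. Both lines carry a viral vector and were kept under puromycin. The deposited treatment label gives PLKO as the shRNA line and V71 as the control, whereas in the methods the control line carries pLKO.1-Puro. The lines are therefore called by their codes, with V71 minus PLKO as the direction of each line difference. The target gene of the shRNA, which the methods name as IKBKAP, was not analysed here, and the labels were not checked by it. Each kind is represented by 1 line, and a difference between the lines cannot be told apart from other differences between 2 separately derived lines.

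SOX proteins bind DNA through an HMG box that resembles that of the sex-determining factor SRY, and they bend the DNA they bind. They fall into groups by sequence. SOX2 is a SOXB1 factor that keeps neural progenitors undifferentiated. The SOXC factors SOX4, SOX11 and SOX12 act in neuronal precursors and in young neurons, and SOX4 and SOX11 are needed for sympathetic ganglia to grow in the mouse. The SOXD factors SOX5, SOX6 and SOX13 carry no activation domain of their own and modify the work of other SOX proteins. The SOXE factors SOX8, SOX9 and SOX10 specify the neural crest, and SOX10 is later kept in Schwann cells and melanocytes.

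Values are robust multi-average (RMA) values on the log2 scale, in which a step of 1 is a doubling of signal; since each row has its own probes, values were compared between arrays for a gene and not between genes. A gene was called where the limma model gave an adjusted p (Benjamini-Hochberg over the 28869 rows) under 0.05 and a fold of at least 1.5. With 2 arrays per group the number of arrays limits the precision, and p-values measure the spread between duplicates of one line. Duplicates correlated at a Spearman coefficient of 0.9947 or more across rows, and arrays of different groups at 0.9931 or less. None of the 10 members fell below the lower quartile of any array. SOX4, SOX9, SOX11 and SOX12 lay above the array median on all 8 arrays, and SOX2, SOX5, SOX6 and SOX13 lay below it on all 8. The noradrenergic neuroblast markers of this cell type lay above the lower quartile on all 8 arrays for 14 of 14 measured genes, PHOX2A, HAND2, GATA2 and GATA3 among them. TH, the first enzyme of noradrenaline synthesis, had the values 4.37 and 4.26 in V71 DF, 4.49 and 4.33 in V71 NDF, 4.60 and 4.27 in PLKO DF, and 4.34 and 4.21 in PLKO NDF, where array medians were 4.60 to 4.68. Of 12 measured Schwann cell and glial precursor markers, 9 lay above the lower quartile on all 8 arrays. CDH19 and FABP7 lay below it on all 8. Of the 9, S100B (3.81 to 4.37), ERBB3 (3.57 to 3.86) and FOXD3 (3.72 to 3.99) stayed below the array medians. GFAP and GJC3 also stayed below. NGFR (5.04 to 5.47), GAP43 and CNP lay above the medians on all 8 arrays. POU3F1 lay above the median on some arrays and below it on others. Of 5 melanocyte markers, TYR, TYRP1 and MLANA lay below the lower quartile on all 8 arrays. MITF and PMEL lay between it and the median on all 8. Most rows of an array lie above its lower quartile by definition, so passing it does not show expression. In RNA from whole cultures, fewer cells of a type and less RNA per cell cannot be told apart.

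Upon differentiation SOX11 was called lower in both lines, SOX4 higher in V71 and SOX5 lower in PLKO. SOX4 in PLKO and SOX5 in V71 changed in the same direction without a call. In the V71 line, 2 of the 10 members were called, against 7.53% of all genes, 1 of them higher in DF (background 3.98%) and 1 lower (background 3.55%). In the PLKO line, 2 of the 10 members were called, against 7.04% of all genes, 0 of them higher in DF (background 2.88%) and 2 lower (background 4.16%). The median change of the 10 members was -0.10 in V71 and -0.12 in PLKO, beside medians over all genes of -0.004 in V71 and 0.013 in PLKO. The DF arrays lay above the NDF arrays without overlap for 1 member in V71 and 2 in PLKO, and below them for 5 members in each line; over all genes such separation above and below occurred for 27.7% and 27.3% in V71 and for 29.2% and 25.9% in PLKO.

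**Figure D1:**
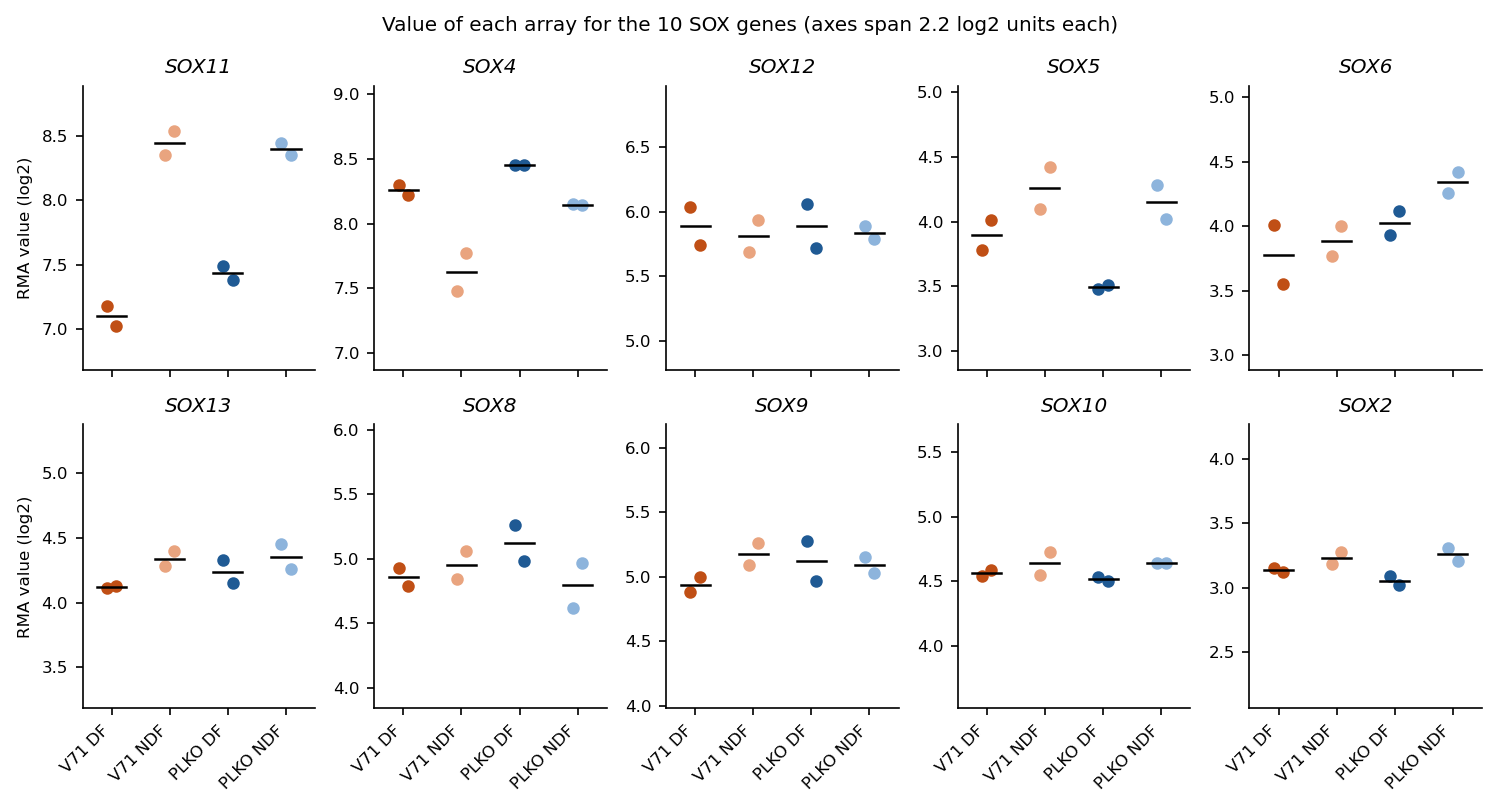
RMA value (log2) of each of the 8 arrays for the 10 SOX genes, by group, with points for arrays and a line for the mean of 2. SOX11 sits between 7.03 and 7.49 on the 4 DF arrays and between 8.35 and 8.54 on the 4 NDF arrays, and SOX4 is lowest in V71 NDF.

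SOX11, a SOXC factor of neuronal precursors that is abundant in neuroblastoma, had the largest change of the 10 members. Its values were 7.18 and 7.03 in V71 DF and 8.35 and 8.54 in V71 NDF. In the other line they were 7.49 and 7.38 in PLKO DF and 8.44 and 8.35 in PLKO NDF. The 4 DF arrays lay below the 4 NDF arrays, with a gap wider than the range within either condition. The difference, DF minus NDF, was -1.34 in V71 (SE 0.10, 95% interval -1.57 to -1.11, limma adjusted p = 2.65e-05), a level 2.53-fold lower in DF. It was -0.96 in PLKO (SE 0.10, 95% interval -1.19 to -0.73, limma adjusted p = 0.000179), a level 1.95-fold lower in DF. Among all genes ordered from the lowest difference, SOX11 was number 127 of 18377 in V71 and number 390 in PLKO. The fall was called under 18 of 18 other settings in V71. In PLKO it was called under 17 of 18, all except a fold threshold of 2.

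SOX4, a SOXC factor that acts with SOX11 in neuronal precursors, went the other way. It had 8.30 and 8.22 in V71 DF and 7.48 and 7.77 in V71 NDF. The PLKO arrays had 8.45 and 8.45 in DF and 8.15 and 8.14 in NDF. DF arrays were above NDF arrays in both lines, and the V71 NDF pair was the lowest and the most spread. The difference was 0.64 in V71 (SE 0.10, 95% interval 0.40 to 0.87, limma adjusted p = 0.00293), 1.56-fold higher in DF and near the threshold of 1.5. In PLKO it was 0.30 (95% interval 0.07 to 0.53, limma adjusted p = 0.102) and was not called. The V71 call was lost without V71 NDF replicate 2, where the difference was 0.49 (limma adjusted p = 0.0206), and without moderation of the variance (adjusted p = 0.0572). Subtracting the change of SOX4 from that of SOX11 gave -1.98 in V71 and -1.26 in PLKO.

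The sequence upstream of SOX4 is shown because retinoic acid, whose receptors bind pairs of the half-site AGGTCA, was part of the DF treatment. DF also differed from NDF by BDNF and the absence of serum. The part of each in the SOX4 change was not tested. RefSeq windows of the 250 bases before the start of the gene, from GRCh38.p14, were found for 6 of the 10 members (SOX2, SOX4, SOX5, SOX6, SOX12 and SOX13). AGGTCA, read on both strands, occurred in the windows of SOX2 and SOX4, and in 12% of the 34788 windows of all genes. In the SOX4 window, chr6:21593501-21593750 on the plus strand, the half-site begins 172 bases before the start and is in capitals.
SOX4: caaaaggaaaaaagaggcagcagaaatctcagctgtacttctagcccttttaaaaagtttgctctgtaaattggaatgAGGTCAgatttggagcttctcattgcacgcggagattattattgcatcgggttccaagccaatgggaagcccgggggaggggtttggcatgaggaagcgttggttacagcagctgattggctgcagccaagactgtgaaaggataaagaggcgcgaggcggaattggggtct
A match of 6 bases is a description of the sequence. Binding of a receptor was not measured.

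SOX12, the third SOXC factor, had 6.04 and 5.74 in V71 DF, 5.69 and 5.94 in V71 NDF, 6.06 and 5.72 in PLKO DF, and 5.89 and 5.79 in PLKO NDF. All 4 groups overlapped. DF minus NDF was 0.08 in V71 (95% interval -0.25 to 0.40) and 0.05 in PLKO (95% interval -0.28 to 0.37), intervals that leave out a fold of 1.5 in both directions.

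**Figure D2:**
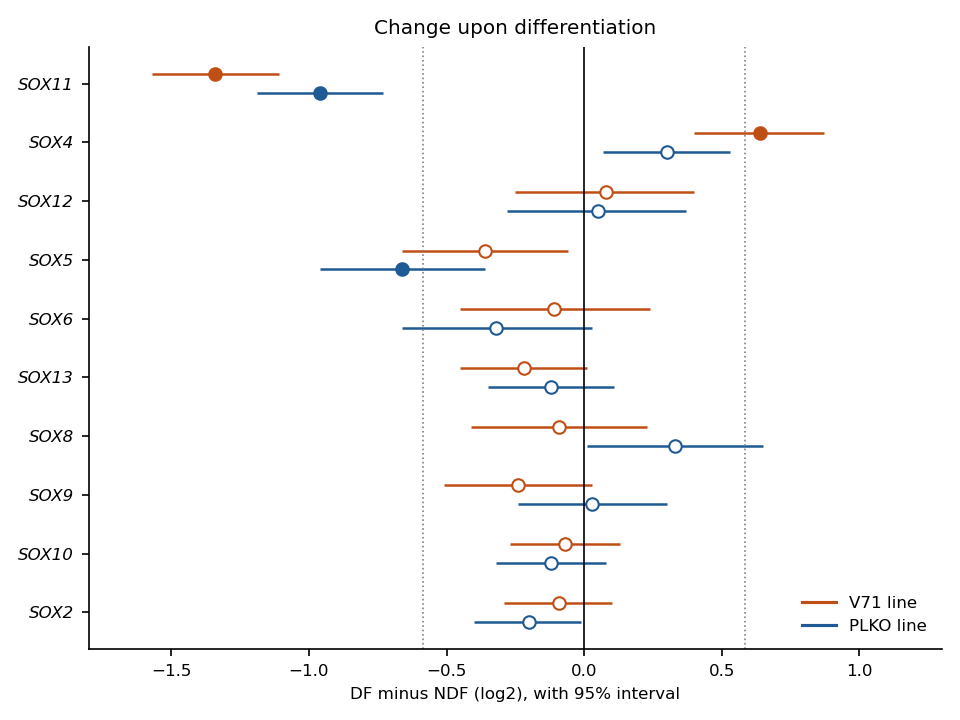
Difference DF minus NDF (log2) of each SOX gene in the V71 line (orange) and in the PLKO line (blue), with the 95% interval of the limma fit as bars, filled points for called genes and dotted lines at a fold of 1.5. SOX11 is at -1.34 and -0.96, and the 7 genes other than SOX11, SOX4 and SOX5 have no filled point.

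SOX5, a SOXD factor of neural crest and cortical neurons, had 3.78 and 4.01 in V71 DF and 4.10 and 4.42 in V71 NDF. In PLKO it had 3.48 and 3.51 in DF and 4.28 and 4.02 in NDF. DF arrays lay below NDF arrays in each line, and the PLKO DF pair was the lowest. The difference was -0.66 in PLKO (SE 0.13, 95% interval -0.96 to -0.36, limma adjusted p = 0.0104), 1.58-fold lower in DF. In V71 it was -0.36 (95% interval -0.66 to -0.06, limma adjusted p = 0.121) and was not called. The PLKO call was lost without PLKO NDF replicate 2, at -0.53 (limma adjusted p = 0.0994), and without PLKO DF replicate 1, at -0.64 (limma adjusted p = 0.0564). It was also lost without moderation (adjusted p = 0.133). SOX5 lay below the array median on all 8 arrays, and overlapping transcripts in the annotation, SOX5-AS1 and MIR920 among them, were not separated here.

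SOX proteins prefer sites with the core ACAATG or ACAAAG, and the SOX5 window is shown because it holds the first of them 2 times. On both strands ACAATG occurred in 9.29% of all windows and in those of SOX5 and SOX6, and ACAAAG in 13.8% and in those of SOX2 and SOX6. The SOX5 window is chr12:24562492-24562741 on the minus strand, and the capitals mark CATTGT, the reverse complement of ACAATG, beginning 180 and 138 bases before the start.
SOX5: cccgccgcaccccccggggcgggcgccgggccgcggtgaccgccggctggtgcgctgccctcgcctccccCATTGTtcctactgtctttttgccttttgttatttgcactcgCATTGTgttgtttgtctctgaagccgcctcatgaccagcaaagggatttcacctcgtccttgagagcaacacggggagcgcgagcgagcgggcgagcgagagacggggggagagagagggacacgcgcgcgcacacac
Whether a SOX protein occupies these bases was not measured.

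SOX6, the SOXD partner of SOX5 in cartilage, had 4.01 and 3.55 in V71 DF and 3.77 and 4.0 in V71 NDF, which overlapped. In PLKO it had 3.93 and 4.12 in DF and 4.26 and 4.42 in NDF, with the DF pair lower. The difference was -0.11 in V71 (95% interval -0.45 to 0.24) and -0.32 in PLKO (95% interval -0.66 to 0.03, limma adjusted p = 0.258). SOX13, the remaining SOXD factor, gave -0.22 in V71 (95% interval -0.45 to 0.01) and -0.12 in PLKO (95% interval -0.35 to 0.11). Its values ran between 4.11 and 4.45 over the 8 arrays.

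Among the SOXE factors no change upon differentiation was called. SOX8, which overlaps SOX9 and SOX10 in the crest, had 4.93 and 4.79 in V71 DF and 4.84 and 5.06 in V71 NDF, against 5.26 and 4.98 in PLKO DF and 4.62 and 4.97 in PLKO NDF. The difference was -0.09 in V71 (95% interval -0.41 to 0.23) and 0.33 in PLKO (95% interval 0.01 to 0.65, limma adjusted p = 0.196). The PLKO DF arrays were above the PLKO NDF arrays by a margin of 0.01, and the interval reaches past the fold of 1.5. SOX9, a factor of crest induction, gliogenesis and cartilage, ran between 4.88 and 5.28 over the 8 arrays and gave -0.24 in V71 (95% interval -0.51 to 0.03) and 0.03 in PLKO (95% interval -0.24 to 0.30). SOX10, the factor of glial and melanocyte fate, had values between 4.50 and 4.73 over the 8 arrays. Its differences were -0.07 in V71 (95% interval -0.27 to 0.13) and -0.12 in PLKO (95% interval -0.32 to 0.08). The annotation has the protein-coding gene POLR2F overlapping SOX10, which was not separated here.

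SOX2, the SOXB1 progenitor factor, had 3.15 and 3.12 in V71 DF, 3.18 and 3.28 in V71 NDF, 3.09 and 3.02 in PLKO DF, and 3.31 and 3.21 in PLKO NDF. DF arrays were below NDF arrays in both lines by small margins. The difference was -0.09 in V71 (95% interval -0.29 to 0.10) and -0.20 in PLKO (95% interval -0.40 to -0.01, limma adjusted p = 0.190). The row lay near the lower quartile of the arrays (3.002 to 3.063), and the annotation has the transcript SOX2-OT overlapping SOX2, which was not separated here.

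Between the lines no member was called. In DF, 0 of the 10 members were called in V71 minus PLKO, against 3.06% of all genes (1.81% higher and 1.26% lower). In NDF, 0 of the 10 members were called, against 2.15% of all genes (0.615% higher and 1.54% lower). At an unadjusted p under 0.05 the limma fit gave 3576 of 18377 genes in DF and 2765 in NDF, SOX4 and SOX6 in NDF and SOX5 and SOX11 in DF among them. The median difference of the members was -0.15 in DF and -0.01 in NDF, beside 0.005 and 0.012 over all genes. In DF the V71 arrays lay above the PLKO arrays without overlap for 3 members and below for 4, and in NDF for 0 and 2. Over all genes those shares were 24.6% and 21.1% in DF, and 26% and 21.5% in NDF.

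**Figure D3:**
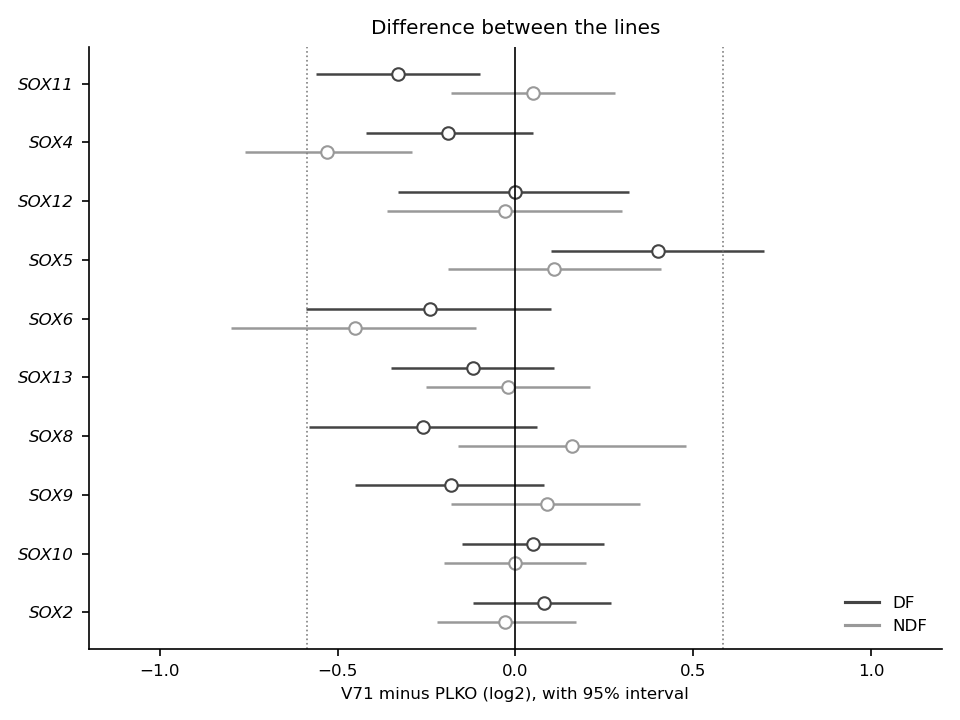
Difference V71 minus PLKO (log2) of each SOX gene in DF (dark) and in NDF (grey), with the 95% interval of the limma fit as bars and dotted lines at a fold of 1.5. All points are open, since no gene was called; SOX4 in NDF is at -0.53 and SOX5 in DF at 0.40.

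SOX4 came nearest to a call. It was at 7.48 and 7.77 in V71 NDF and at 8.15 and 8.14 in PLKO NDF, with the V71 arrays below. The difference was -0.53 (SE 0.10, 95% interval -0.76 to -0.29), 1.44-fold lower in V71, with a limma adjusted p of 0.0298 and a fold under the threshold. Without V71 NDF replicate 3 it was -0.67 (limma adjusted p = 0.0155) and was called. In DF it was -0.19 (95% interval -0.42 to 0.05). SOX6 in NDF gave -0.45 (95% interval -0.80 to -0.11, limma adjusted p = 0.227). In DF, SOX5 gave 0.40 (95% interval 0.10 to 0.70, limma adjusted p = 0.149) and SOX11 gave -0.33 (95% interval -0.56 to -0.10, limma adjusted p = 0.112). Both intervals exclude 0 before adjustment over the rows, and the SOX5 interval includes a fold of 1.5.

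The interaction, the change upon differentiation in V71 minus that in PLKO, was called for 0 of the 10 members, against 1.39% of all genes, 1.09% above 0 and 0.305% below (1873 genes at an unadjusted limma p under 0.05, SOX4 and SOX11 among them). SOX11 gave -0.38 (95% interval -0.70 to -0.06, limma adjusted p = 0.417), SOX4 gave 0.34 (95% interval 0.01 to 0.67, limma adjusted p = 0.524) and SOX8 gave -0.42 (95% interval -0.87 to 0.03, limma adjusted p = 0.592). For SOX5 it was 0.29 (95% interval -0.13 to 0.72, limma adjusted p = 0.741). A call of SOX4 in V71 and of SOX5 in PLKO is therefore not shown to differ between the lines, and these intervals are wide enough to hold a difference of 1.5-fold for SOX4, SOX5, SOX8 and SOX11.

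The other SOX genes on the array were SOX1, SOX3, SOX7, SOX14, SOX15, SOX17, SOX18, SOX21 and SOX30. None of the 9 was called in any of the 5 limma contrasts or under the 18 other settings, and 3 of their 45 differences had an unadjusted p under 0.05. Over all genes such a p was found for 1873 (interaction) to 5346 (DF minus NDF in V71) of 18377 per contrast. SOX30 lay below the lower quartile on all 8 arrays, at 2.76 to 2.97. The largest change upon differentiation among them was that of SOX18, a factor of vessel endothelium, at 5.50 and 5.42 in V71 DF and 5.77 and 5.68 in V71 NDF, a difference of -0.27 (SE 0.10, limma adjusted p = 0.112). SOX1 and SOX3, the SOXB1 relatives of SOX2, gave 0.06 and -0.06 in V71 and 0.21 and 0.09 in PLKO (limma adjusted p = 0.205 for SOX1 in PLKO). The HMG-box relatives TCF7L1, TCF7L2 and LEF1, which act in Wnt signalling, had no call in 3 measured genes, with an unadjusted limma p under 0.05 in 4 of 15 differences. LEF1 lay below the lower quartile on all 8 arrays, where a fall may not be measurable.

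Known targets of the SOXC factors were measured for 4 of 6 listed genes, and they did not move as 1 group. DCX, which encodes the microtubule protein doublecortin of migrating neurons, had 9.81 and 9.98 in V71 DF and 9.10 and 9.22 in V71 NDF, against 7.92 and 7.90 in PLKO DF and 8.52 and 8.45 in PLKO NDF. DF was above NDF in V71 and below it in PLKO. The change was 0.74 in V71 (SE 0.09, limma adjusted p = 0.000609) and was -0.58 in PLKO (limma adjusted p = 0.00270, under the fold threshold), and their difference was called at 1.31 (SE 0.13, limma adjusted p = 0.00137). V71 minus PLKO was 1.98 in DF (limma adjusted p = 5.56e-06) and 0.67 in NDF (limma adjusted p = 0.00387).

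TEAD2, a factor of the Hippo pathway and a SOX11 target in the mouse embryo, had 3.74 and 3.68 in V71 DF and 3.91 and 3.89 in V71 NDF, against 4.20 and 4.02 in PLKO DF and 5.21 and 5.29 in PLKO NDF. The PLKO NDF pair stood above the other groups. DF minus NDF was -1.14 in PLKO (limma adjusted p = 3.10e-05) and -0.19 in V71 (limma adjusted p = 0.238), with a called interaction of 0.95 (limma adjusted p = 0.00837). EZH2, the histone methyltransferase that SOX4 controls in mouse mammary cells, fell in both lines, by 1.0 on the log2 scale in V71 and by 1.07 in PLKO. MAP2, a dendrite protein, had 8.64 and 8.82 in PLKO DF and 8.16 and 8.16 in PLKO NDF, a difference of 0.57 (limma adjusted p = 0.00248) just under the fold threshold. In V71 its difference was 0.27 (limma adjusted p = 0.0810).

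**Figure D4:**
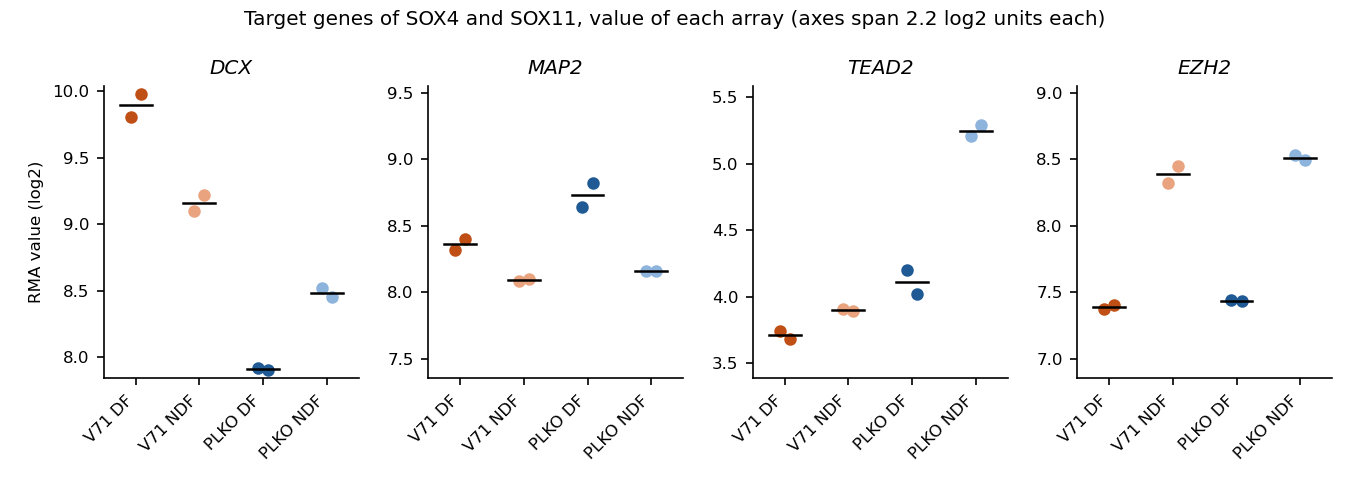
RMA value (log2) of each array for DCX, MAP2, TEAD2 and EZH2, by group, with points for arrays and a line for the mean of 2. DCX is highest in V71 DF (9.81 and 9.98) and lowest in PLKO DF (7.92 and 7.90), TEAD2 is highest in PLKO NDF, and EZH2 is lower on the 4 DF arrays than on the 4 NDF arrays.

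Of the SOX10 targets of crest derivatives, 10 of 17 listed genes were measured. Neural crest and glial targets such as ERBB3, MBP and MITF had no call. TYR, TYRP1 and EDNRB lay below the lower quartile on all 8 arrays, and MBP on all except PLKO DF replicate 1. A fall of these genes may not be measurable. CHRNA3 and CHRNB4, nicotinic receptor subunits of autonomic neurons that lie in 1 gene cluster, were higher in V71. CHRNA3 differed by 0.83 in DF (limma adjusted p = 0.000815) and 1.11 in NDF (limma adjusted p = 0.000148), and CHRNB4 by 0.81 in DF (limma adjusted p = 0.00168). CHRNB4 also fell upon differentiation in PLKO, by 0.68 on the log2 scale. None of the 13 cartilage targets of SOX9, SOX5 and SOX6, COL2A1 and ACAN among them, was called in any limma contrast. Of their 65 differences, 5 had an unadjusted p under 0.05, beside 1873 to 5346 of 18377 genes per contrast. HAPLN1 and CNMD lay below the lower quartile on all 8 arrays, where a fall may not be measurable. Of 12 measured SOX2 partners and progenitor genes, PROM1, a membrane protein of progenitors, was called lower in PLKO DF, at 2.61 and 2.68, than in PLKO NDF, at 3.65 and 3.35. Both PLKO DF values and the 4 V71 values of PROM1 lay below the lower quartile of their arrays, so the size of its difference is not well measured. MYCN, the oncogene of neuroblastoma, had 6.60 and 6.53 in V71 DF against 5.67 and 5.60 in PLKO DF, a difference of 0.93 (limma adjusted p = 0.000333).

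Genes of cell division moved in the same direction as SOX11 upon differentiation. Of 17, 16 were called lower in V71 and 17 in PLKO, against 3.55% and 4.16% of all genes. Median changes were -1.45 in V71 and -1.91 in PLKO. MCM5, not called in V71, also was lower in DF there, at 7.78 and 7.65 against 8.17 and 8.35 in NDF. PLK1, a mitotic kinase, fell by 1.84 in V71 and 2.36 in PLKO. The mean of the list was 6.85 and 6.78 in V71 DF, 8.09 and 8.12 in V71 NDF, 6.14 and 6.29 in PLKO DF, and 7.94 and 7.91 in PLKO NDF. Between the lines in DF, 10 of the 17 were called higher in V71 than in PLKO (2 without moderation), against 1.81% of all genes. MCM3 lay lower in V71 DF, at 7.08 and 6.90, than in PLKO DF, at 7.50 and 7.48. The part of cell division in the changes of SOX11, SOX4 and SOX5 was not tested.

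Markers of mesenchymal (S-type) neuroblastoma cells also differed between the groups. Of 19, 7 were called lower in V71 NDF than in PLKO NDF, against 1.54% of all genes. In DF 2 of the 19 were called lower in V71, against 1.26%. Upon differentiation in PLKO 5 were called lower, against 4.16%. Without moderation these counts were 3, 1 and 4. The list mean was 4.82 and 4.69 in V71 DF, 4.72 and 4.81 in V71 NDF, 5.03 and 4.98 in PLKO DF, and 5.32 and 5.37 in PLKO NDF. PDGFRA, a receptor tyrosine kinase, had the largest line difference of the list. V71 minus PLKO was -2.55 in NDF (limma adjusted p = 5.83e-06) and -2.81 in DF (limma adjusted p = 4.39e-06). SNAI2, a repressor of crest cells, was at 4.92 and 4.91 in V71 NDF and at 6.43 and 6.61 in PLKO NDF (difference -1.61, limma adjusted p = 2.10e-05). DCN and VIM also were lower in V71 NDF, and DCN in V71 DF (difference -1.25, limma adjusted p = 0.000263). The V71 values of DCN lay below the lower quartile of their arrays in both conditions. Upon differentiation 5 of 14 noradrenergic markers were called lower and 2 higher in V71, against 3.55% and 3.98% of all genes. In PLKO 3 were called lower and 2 higher, against 4.16% and 2.88%. At an unadjusted limma p under 0.05, 11 of the 14 differed in each line, beside 5346 of 18377 genes in V71 and 5152 in PLKO. SLC6A2, the noradrenaline transporter, fell by 2.02 in V71 and 1.58 in PLKO, and CHGB, a granin of secretory vesicles, rose by 2.22 in V71 and 1.43 in PLKO. GAP43, a growth cone protein listed with the Schwann cell precursor genes, was the one called gene of 12 in that list. The 5 measured melanocyte markers had no call. Of their 25 differences, 8 had an unadjusted limma p under 0.05, beside 1873 to 5346 of 18377 genes per contrast. The part of these cell states in the SOX values was not tested.

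The 3 genes with the most similar values were found for each called member by the root mean square (RMS) difference of the 8 values, each centred on its own mean. For SOX11, whose own RMS about its mean was 0.592, they were SMAD6, an inhibitor of BMP signalling (0.109), SHMT2, an enzyme of mitochondrial serine metabolism (0.114), and PTPRU, a receptor phosphatase (0.118). For SOX4, with an own RMS of 0.316, they were PCBP3, an RNA-binding protein (0.074), TMOD1, which caps actin filaments (0.074), and RAB3A, a GTPase of synaptic vesicles (0.077). For SOX5, also at 0.316, they were ACTG1, a cytoplasmic actin (0.090), SNRPA, a protein of the U1 splicing particle (0.093), and NUP93, of the nuclear pore (0.098). Likeness over 8 arrays in 4 groups rests mainly on the group means. SMAD6 changed by -1.26 in V71 and -0.83 in PLKO, beside -1.34 and -0.96 for SOX11.

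**Figure D5:**
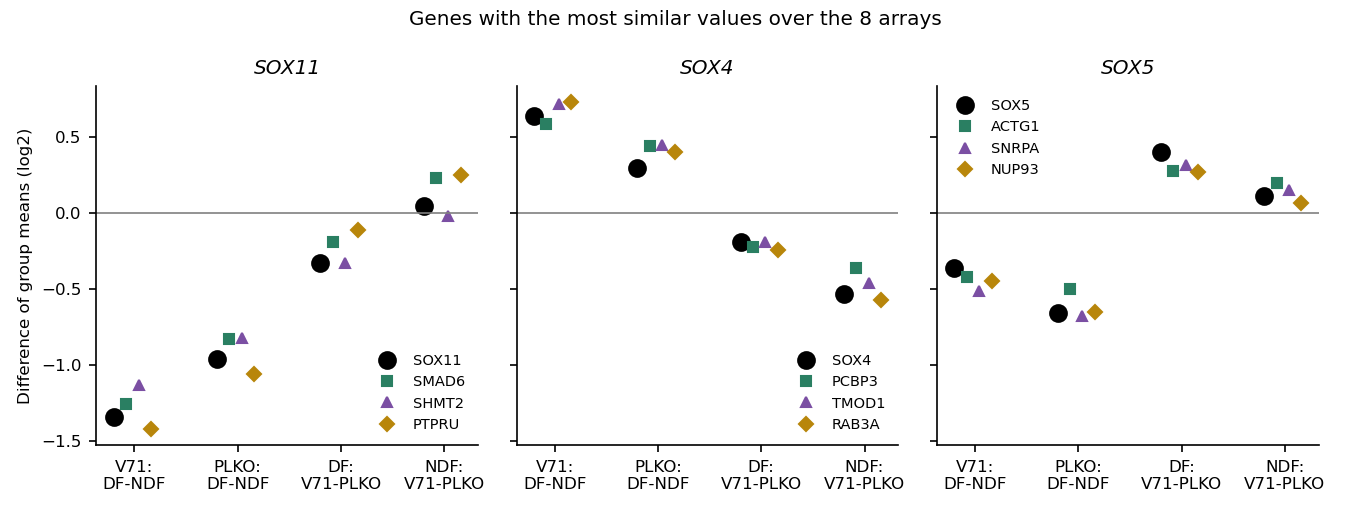
Differences of group means (log2) in 4 comparisons for SOX11, SOX4 and SOX5 (black circles) and for the 3 genes with the smallest RMS difference from each (coloured symbols). The symbols of a panel lie close together, as the choice of genes requires; SOX11 and its 3 genes are below -0.8 in both DF minus NDF comparisons.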

How the data were processed

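Total RNA of 8 SHSY5Y cultures was hybridized to Affymetrix Human Gene 1.0 ST arrays. The authors used Partek Genomics Suite 6.5 for RMA normalization and summarization. The deposited log2 values were analysed without further scaling. Of 28869 rows, 19310 were annotated to 1 gene, 1752 to several and 7807 to none, and where a gene had several rows the row of highest mean was taken, for 18377 genes. Samples were grouped by title code. The means of 4 groups were fitted in limma 3.58.1 (R 4.3.3) with moderated variances (4 residual and 5.43 prior degrees of freedom, median residual SD 0.0996), and p was adjusted by Benjamini-Hochberg over all rows. The fit was tested on simulated data. Depth does not apply to arrays, and their number limits the precision.

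The members and gene lists were chosen with earlier results of these data known. Named genes were the 10 members, the other SOX genes, at most 3 called genes per list and contrast, and the 3 most similar genes of each called member. More called genes were named for the mesenchymal markers. Other list members without a call were named as examples. Genes of the lists without a row of their own here were not analysed. Alternatives were no moderation, a trended robust prior, median centring, cyclic loess, repeated quantile normalization, rows below the 33rd percentile left out, array weights, a fold of 2, a fit to only the 4 arrays compared, each array left out in turn, and a replicate block. Names of chromosomes, promoter windows and overlapping genes came from RefSeq GRCh38.p14, since the build of the array annotation is not given in the sources used here.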

Additional observations from a re-analysis of the deposited data

Results flagged for a closer look

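No SOX gene had a change upon differentiation that differed between the lines by the limma interaction test, and groups of 2 arrays are too small to look for outlying arrays. Of the listed genes, 11 passed that test, where 1.39% of all genes did. They were 5 of 19 mesenchymal markers, 2 of 4 SOXC targets and 1 of 17 cell division genes. The others were 1 of 14 noradrenergic markers, 1 of 12 Schwann cell markers and 1 of 12 SOX2 partner genes. These lists were chosen with earlier results of these data known. The change in V71 minus that in PLKO was 1.31 for DCX and 0.95 for TEAD2, both SOXC targets, and 0.65 for MYCN, near the threshold of 0.585 (limma adjusted p = 0.0498). Among the mesenchymal markers it was 1.44 for VIM, 1.23 for LUM, 1.11 for SNAI2, 0.90 for DCN and 0.85 for NOTCH2. DCN lay below the lower quartile of its arrays in all 4 V71 samples, LUM in both V71 NDF, both PLKO DF and 1 of 2 V71 DF samples, and VIM in both V71 DF samples, so for these 3 genes a further fall may not be measurable and the size of the difference is not well measured. It was 1.55 for GAP43, 0.75 for BUB1, a mitotic checkpoint kinase, and -0.87 for CHGA, a granin of secretory vesicles. Without moderation of the variance, 0 of these 11 interactions were called.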

How the results depend on the processing

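The 10 members were recomputed in 5 contrasts under 18 settings (the interaction was not refitted on only the 4 arrays compared, and SOX2 was dropped by the filter on dim rows). Of 885 values 875 kept their side of the threshold, 9 lost a call, 1 gained one and 0 calls reversed; 37 values without a call changed sign. Most of the 885 values belong to differences without a call in the main fit, so the 875 say little about the calls. All 9 lost calls were those of SOX4 in V71, SOX5 in PLKO and SOX11 in PLKO. Each member has 1 row, so no other row could stand for it. SOX11 ranged from -1.43 to -1.25 in V71 and from -1.02 to -0.90 in PLKO, SOX4 in V71 from 0.49 to 0.78 and SOX5 in PLKO from -0.78 to -0.53. Median centring, cyclic loess and repeated quantile normalization left these 4 calls in place.

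Higher and lower are counted by calls in this part. Without moderation 0 members were higher in DF than NDF in V71 and 1 was lower in PLKO. Over all genes 93 were higher and 73 lower in V71 than in PLKO in DF. These counts were 26 and 73 in NDF, and 3 and 0 in the interaction. At a fold of 2, 0 members were higher in V71 and 0 lower in PLKO upon differentiation, and over all genes the higher and lower counts were 230 and 256 upon differentiation in V71, 159 and 366 in PLKO, 86 and 66 between lines in DF, 40 and 93 in NDF, and 104 and 29 in the interaction; a higher fold calls fewer genes by construction. With each array left out in turn, members higher upon differentiation in V71 were 0 to 1, members lower in PLKO 1 to 2, and members lower in V71 NDF than in PLKO NDF 0 to 1. Genes higher in V71 in NDF were 71 to 112 (71 without PLKO NDF replicate 3), and the interaction had 97 to 185 higher and 23 to 45 lower. Fewer arrays were fitted there; otherwise the cause was not tested.

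The replicate numbers were not taken to pair the arrays, and with 2 arrays per group the following correlations cannot exclude a pairing. Deviations of same-numbered arrays correlated at 0.188 between the lines in DF, -0.176 in NDF, 0.156 between DF and NDF in V71 and -0.0414 in PLKO. With the replicate block 1 member was lower in PLKO upon differentiation, since SOX5 gave -0.57 (limma adjusted p = 0.0982), with 2 residual degrees of freedom.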
